A study of Homo sapiens with 6 samples.

Results

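Genes of glycolysis, glucose transport and the response to low oxygen were examined in MV4;11 cells, a human leukemia line with a rearranged MLL gene (KMT2A). The set held 41 genes, chosen by name. Of these, 37 had at least 1 probe set annotated to that gene alone, out of 18239 genes tested on the arrays. SLC2A3 was read by probe sets shared with SLC2A14 and was left out, and SLC16A1, SLC16A3 and CA9 were not analysed here. The cells had received 4 µM MI-389, an inhibitor of the menin-MLL interaction, with 0.25% DMSO for 6 days, or 0.25% DMSO alone for the same time, with 3 arrays per group. Medium, compound and solvent were renewed on day 3 in both groups. All arrays come from 1 cell line in culture. The labels call the samples biological replicates without saying how the cultures were kept apart, so the p-values reflect differences among these arrays, some of which could be technical.

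Glucose enters cells through carriers of the SLC2A family, is phosphorylated by hexokinases, and is split by a chain of enzymes into pyruvate. Pyruvate is either reduced to lactate by lactate dehydrogenase or taken up by mitochondria, where the pyruvate dehydrogenase complex oxidises it. That complex is switched off by the kinases PDK1 to PDK4 and switched on by pyruvate dehydrogenase phosphatases. The pentose phosphate pathway branches off from glucose phosphate and supplies NADPH and ribose. In low oxygen the factor HIF1A escapes the prolyl hydroxylases of the EGLN family, pairs with ARNT and raises many of these genes together with VEGFA.

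HIF1A and ARNT bind DNA at sites that can hold the core ACGTG, the only form searched for here. The 4 promoters below are shown because their genes fell (SLC2A5 and PDK1), rose (EGLN1) or did not pass the test (LDHA). Each is the RefSeq window of 250 bases before to 50 bases after a start site, written 5′ to 3′, and capitals mark every ACGTG on either strand (ACGTG or CACGT), with overlapping matches counted as 1 site.
SLC2A5 promoter, GRCh38.p14 chr1:9069586-9069885, minus strand: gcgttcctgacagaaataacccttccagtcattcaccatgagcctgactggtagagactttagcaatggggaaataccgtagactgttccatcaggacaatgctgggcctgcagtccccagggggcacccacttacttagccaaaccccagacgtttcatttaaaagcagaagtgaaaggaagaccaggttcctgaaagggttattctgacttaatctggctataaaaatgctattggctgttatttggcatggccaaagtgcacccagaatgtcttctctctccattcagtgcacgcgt
PDK1 promoter, GRCh38.p14 chr2:172555840-172556139, plus strand: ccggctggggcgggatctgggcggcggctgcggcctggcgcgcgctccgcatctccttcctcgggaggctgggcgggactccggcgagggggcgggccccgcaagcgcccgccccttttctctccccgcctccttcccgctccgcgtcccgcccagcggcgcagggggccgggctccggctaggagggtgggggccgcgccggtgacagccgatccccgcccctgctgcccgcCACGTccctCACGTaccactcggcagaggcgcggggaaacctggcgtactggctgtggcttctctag
EGLN1 promoter, GRCh38.p14 chr1:231422238-231422537, minus strand: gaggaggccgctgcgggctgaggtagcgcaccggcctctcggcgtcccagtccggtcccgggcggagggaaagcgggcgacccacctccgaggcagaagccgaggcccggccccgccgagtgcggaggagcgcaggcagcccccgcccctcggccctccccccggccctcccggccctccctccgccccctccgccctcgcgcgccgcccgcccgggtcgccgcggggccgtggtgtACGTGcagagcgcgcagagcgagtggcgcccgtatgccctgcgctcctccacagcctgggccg
LDHA promoter, GRCh38.p14 chr11:18394313-18394612, plus strand: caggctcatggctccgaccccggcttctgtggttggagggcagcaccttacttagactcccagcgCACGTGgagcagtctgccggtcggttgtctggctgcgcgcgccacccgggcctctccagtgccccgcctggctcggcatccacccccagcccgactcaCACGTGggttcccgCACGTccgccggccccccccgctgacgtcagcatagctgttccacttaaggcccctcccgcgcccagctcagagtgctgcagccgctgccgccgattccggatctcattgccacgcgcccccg
The window shown held 0 sites for SLC2A5, 2 for PDK1, 1 for EGLN1 and 3 for LDHA. PDK1 and LDHA each have 1 more window in the table, at another start site, with 0 sites, and the window with sites is the one shown. Of the 37 member genes with a window in the table, 20 had the core in at least 1 window, against 24.9% of the 27305 genes of the table. These 37 are not the 37 measured members. SLC16A3 and CA9 have a window and no value here, and VEGFA and PFKFB2 have a value and no window. Several members have more than 1 window, which raises the count by gene. Counted by window, 24 of the 66 member windows held the core, which is 36.4%, against 21.4% of the 35116 windows of the table. Among members with a value, windows with the core belonged to 5 of 10 genes that rose, 3 of 7 that fell and 10 of 18 that did not pass the test. The set was chosen by name and includes hypoxia response genes, and base content was not matched. The shares of the members are therefore no test of enrichment. A match is a description of these letters, and binding was not measured.

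Values are log2 expression as deposited, with 1 probe set per gene, the brightest. Differences are MI-389 minus DMSO, tested with limma over all genes, and "rose" and "fell" stand for an adjusted p under 0.05. Of the 37 members, 11 rose and 8 fell. Over all genes 18.4% rose, 15.7% fell and 34.1% changed in either direction. Counting only genes whose mean was above 5.49 in a group, the highest level of the nonspecific control probe sets with the one of highest GC content left out, 17 of 30 members changed, which is 56.7%, against 58.4% of all such genes. In this bright part 10 members rose and 7 fell, where 30.7% and 27.7% of all such genes did. Every MI-389 array lay above every DMSO array for 13 of the 37 members and below for 10, against 24.9% and 20.5% of all genes, or 45.3% in either direction. In the bright part this held for 12 and 9 of 30 members, and for 3304 and 2987 of 8928 genes. The median difference of the members was 0.03, and that of all genes 0.02. Fitted changes of at least 2-fold were found for 3 members that rose and 3 that fell, where 2.07% and 1.79% of all genes did so. In the bright part 360 of 8928 genes rose and 306 fell by that much. HK3 is among the 3 rises, and since its DMSO group lay below background, only a bound of 1.59-fold can be given. With the arrays centred on the hybridisation spike-ins, which lowers every difference by 0.25, the members counted 5 higher and 22 lower. Of all 18239 genes, 1397 were then higher and 11056 lower.

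**Figure D1:**
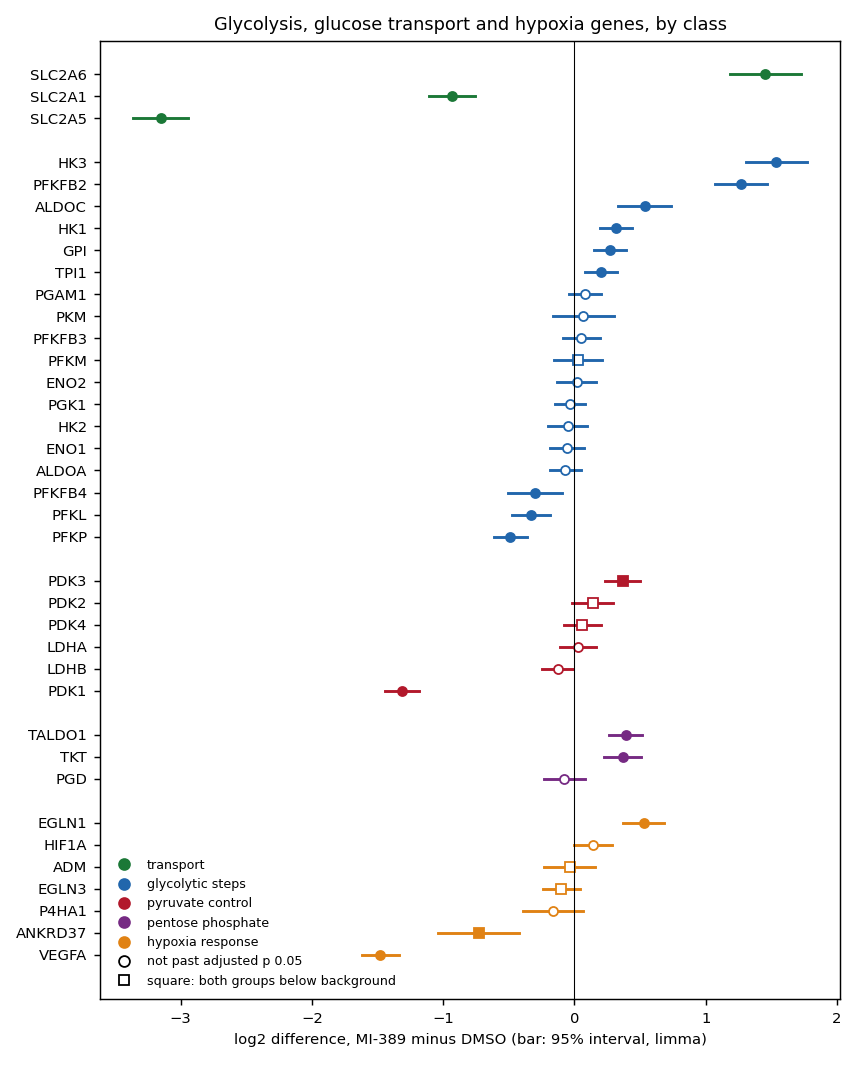
Log2 difference (MI-389 minus DMSO, horizontal axis) of the 37 measured members by class, with 95% intervals from limma, unadjusted for the number of genes; filled symbols passed an adjusted p of 0.05, and squares mark genes below the background level in both groups. SLC2A5 at -3.15, VEGFA at -1.48 and PDK1 at -1.31 lie far left, and HK3 at 1.54, SLC2A6 at 1.45 and PFKFB2 at 1.27 far right. Of the 18 glycolytic members, the 9 not called lie between -0.07 and 0.08.

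Over all probe sets, the correlation between 2 arrays was 0.997 to 0.998 within a treatment and 0.979 to 0.981 across treatments. The hybridisation spike-ins were 0.25 higher on the MI-389 arrays. The 3-prime minus 5-prime signal of the ACTB control lay between 1.48 and 1.91 on MI-389 arrays and between 1.23 and 1.39 on DMSO arrays, and its part in the results was not tested. Of 7 measured markers of the myeloid line, 6 were above 5.49, among them LYZ at 13.1 in MI-389 cells and 11.1 in DMSO cells. The exception was SPI1, read by 1 probe set at 3.99 in MI-389 cells and 4.66 in DMSO cells. Of 21 measured markers of other cell types, 17 lay below 5.49 in both groups, the others being NKG7, NCAM1, PAX5 and KRT18. The linear values of these 21 summed to between 676 and 698 on MI-389 arrays and between 696 and 718 on DMSO arrays. That total joins opposite shifts. T and NK cell markers summed to 298 to 319 with MI-389 and 275 to 285 with DMSO. Epithelial and stromal markers summed to 101 to 106 with MI-389 and 144 to 151 with DMSO. In these bulk samples fewer cells with a transcript and less of it per cell cannot be told apart.

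The carriers held the widest spread of changes: all 3 measured members passed the test, and they did not move together. SLC2A5, known as the fructose carrier GLUT5, fell. Its log2 values were 6.00, 5.95 and 5.67 on the MI-389 arrays and 9.09, 9.08 and 8.90 on the DMSO arrays. The groups were far apart, with a difference of -3.15 (SE 0.09, adjusted p = 4.6e-09), which is 8.89-fold lower. SLC2A1 is GLUT1, the basal glucose carrier of many cells. Its values were 7.47, 7.61 and 7.35 with MI-389 and 8.39, 8.51 and 8.33 with DMSO, 1.91-fold lower (adjusted p = 8.0e-06). SLC2A6, a GLUT6 carrier found on lysosomal membranes, rose. It had 7.80, 7.60 and 8.01 with MI-389, against 6.49, 6.10 and 6.45 with DMSO, 2.74-fold higher (adjusted p = 7.7e-06). None of the 3 carriers overlapped between the groups.

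The fall of SLC2A5 was seen in 5 of its 7 probe sets, that of SLC2A1 in 3 of 4, and the rise of SLC2A6 in 2 of 4. Of those called, 1 of SLC2A5 and 1 of SLC2A1 lay below background in both groups. For each gene the probe set without an unspecific suffix was dim. In MI-389 cells these read SLC2A5 at 4.62, SLC2A1 at 3.64 and SLC2A6 at 3.18, against 4.73, 3.68 and 3.13 in DMSO cells, and none of the 3 passed the test. Among 14 other sugar and lactate carriers, their chaperones and regulators, 3 rose and 1 fell, with a median of 0.04. BSG, the chaperone that brings lactate carriers to the membrane, rose by 0.35 by its brightest probe set, while of its 6 probe sets 1 was called higher, 1 lower and 4 neither way. EMB, a related chaperone, fell by 0.78, with 9.39 ± 0.04 in MI-389 cells and 10.2 ± 0.03 in DMSO cells (SD, n = 3 each). SLC2A9, a urate carrier, rose by 0.33 and ARRDC4, an arrestin that lowers glucose uptake, by 0.20. The related TXNIP did not pass the test (0.13, adjusted p = 0.18).

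**Figure D2:**
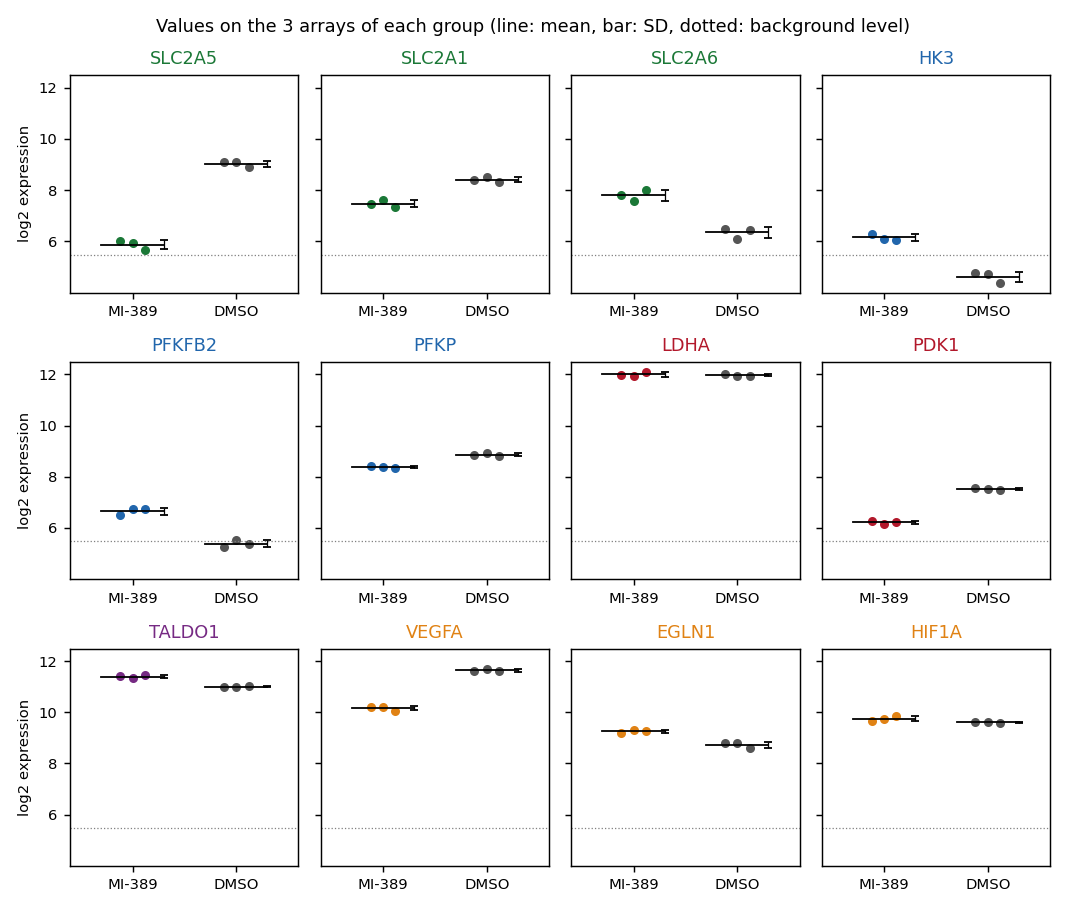
Log2 expression (vertical axis, the same scale in all panels) of 12 members on the 3 MI-389 arrays and the 3 DMSO arrays, with the mean as a line, the SD as a bar and the background level of 5.49 dotted. SLC2A5, SLC2A1, PFKP, PDK1 and VEGFA are lower with MI-389, SLC2A6, HK3, PFKFB2, TALDO1 and EGLN1 higher, and LDHA overlaps between the groups.

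Of the 18 members that carry out or control the glycolytic steps, 6 rose and 3 fell, with a median difference of 0.04. The counts were 3 higher and 10 lower with the spike-in centring, where 1397 and 11056 of all 18239 genes were. At the entry step, HK3, a hexokinase of myeloid cells, rose. It had 6.31, 6.10 and 6.06 with MI-389, against 4.76, 4.71 and 4.39 with DMSO. The DMSO values fall among those of the nonspecific controls, so only a bound can be given, a rise of at least 1.59-fold (fitted difference 1.54, adjusted p = 1.5e-06). HK1, the widespread hexokinase, rose by 0.32 (SE 0.05, adjusted p = 0.0012), with means of 9.92 ± 0.05 in MI-389 cells and 9.60 ± 0.03 in DMSO cells. This rise was called in 1 of its 4 probe sets and not with the mean of all of them (0.15, adjusted p = 0.10) or with the spike-in centring (0.063, adjusted p = 0.47). HK2, the hexokinase induced by HIF1A and growth signals, had 8.01, 8.08 and 7.86 with MI-389 and 8.07, 8.04 and 8.00 with DMSO. These groups overlapped, and the 95% interval of the difference ran from -0.20 to 0.10.

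Phosphofructokinase, the committing step of glycolysis, was lower in 2 of its 3 subunit genes. PFKP, the platelet type subunit, had 8.43, 8.38 and 8.33 with MI-389, against 8.85, 8.92 and 8.83 with DMSO. The groups did not overlap, and the gene was 1.40-fold lower (difference -0.49, SE 0.06, adjusted p = 7.9e-05). PFKL, the liver type, fell by 0.33 (adjusted p = 0.0023), called in 1 of its 3 probe sets and not with their mean (-0.14, adjusted p = 0.080). PFKM, the muscle type, was below background in both groups. The PFKFB enzymes make and remove the fructose bisphosphate that activates phosphofructokinase. PFKFB2, the form known from heart, had 6.50, 6.73 and 6.74 with MI-389 and 5.26, 5.53 and 5.38 with DMSO, at least 2.23-fold higher (fitted difference 1.27, adjusted p = 1.9e-06). It was called in 1 of 6 probe sets, and the other 5 lay below background in both groups. PFKFB3, an inducible form with strong kinase activity, did not pass the test (0.05, interval -0.09 to 0.20). PFKFB4 fell near the background level, at least 1.01-fold (fitted difference -0.30, adjusted p = 0.029), with 5.20 ± 0.10 in MI-389 cells and 5.50 ± 0.18 in DMSO cells (SD, n = 3 each) and overlapping groups. It was not called without MI-389 replicate 2 (-0.25, adjusted p = 0.10), MI-389 replicate 3 (-0.29, adjusted p = 0.077), DMSO replicate 1 (-0.23, adjusted p = 0.11) or DMSO replicate 3 (-0.27, adjusted p = 0.096), nor with the mean of its 4 probe sets (-0.063, adjusted p = 0.42).

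Of the other enzymes between glucose phosphate and pyruvate, GPI, TPI1 and ALDOC rose and 6 measured members did not pass the test. GPI, which turns glucose phosphate into fructose phosphate, rose by 0.27 (adjusted p = 0.0028) and was at 0.019 (adjusted p = 0.83) with the spike-in centring. TPI1, the triose phosphate isomerase, rose by 0.20 (adjusted p = 0.015). TPI1 had 11.87, 11.85 and 11.79 with MI-389 and 11.67, 11.60 and 11.64 with DMSO. It was not called without MI-389 replicate 1 (0.19, adjusted p = 0.051) or DMSO replicate 2 (0.18, adjusted p = 0.070), and its difference was -0.05 with the spike-in centring. ALDOC, an aldolase best known from brain, rose by 0.53 (SE 0.09, adjusted p = 9.9e-04), with 7.55, 7.48 and 7.50 in MI-389 cells, against 7.20, 6.85 and 6.87 in DMSO cells, and 2 of its 5 probe sets were called. The other aldolase measured, ALDOA, did not pass the test (-0.07, interval -0.19 to 0.05). Neither did PGK1, PGAM1, ENO1, ENO2 or PKM, which encode phosphoglycerate kinase, phosphoglycerate mutase, 2 of the enolases and pyruvate kinase. ENO3, another enolase gene and not a member, fell by 0.23 (adjusted p = 0.019) with both groups below background. PKM had 7.06, 6.99 and 7.02 with MI-389 and 7.23, 6.79 and 6.84 with DMSO, so that the DMSO arrays lay on both sides of the MI-389 arrays. Without DMSO replicate 1 its difference was 0.21 and called higher (adjusted p = 0.038), against 0.07 with all arrays. A further probe set, annotated to both PKM and PKM2, was left out.

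In all, 9 glycolytic members were not called, and their differences ran from -0.07 to 0.08. Their 95% intervals lay between -0.20 and 0.30 for the brightest probe sets as deposited. The spike-in centring gave differences from -0.32 (ALDOA) to -0.17 (PGAM1). PGK1 shows the limit set by probe choice: of its 9 probe sets 3 were called higher and 1 lower, with differences from -0.18 to 0.27. With the spike-in centring HK2 (-0.30), ALDOA (-0.32), PGK1 (-0.28), ENO1 (-0.31) and ENO2 (-0.24) were among those called lower. GAPDH, the glycolytic dehydrogenase between aldolase and PGK1 in the chain, had 12.4 ± 0.06 with MI-389 and 12.6 ± 0.03 with DMSO (SD, n = 3 each). It was lower on every MI-389 array than on any DMSO array and missed the threshold (-0.13, adjusted p = 0.095). The 3-prime, middle and 5-prime GAPDH controls, which were not tested, were also lower without overlap, with differences of -0.099, -0.22 and -0.24. Of 19 other measured genes of glycolysis and gluconeogenesis 5 rose and 4 fell, with a median of 0.06. The largest fall there was that of PCK2, the mitochondrial carboxykinase that makes phosphoenolpyruvate, which had 6.08, 5.44 and 5.40 with MI-389, against 8.86, 8.94 and 8.92 with DMSO, 9.63-fold lower, with 1 of the 3 MI-389 arrays above the background level. FBP1, which runs the phosphofructokinase step backwards, rose by 0.97 (adjusted p = 7.3e-05). BPGM, which makes bisphosphoglycerate, rose to 5.56 in MI-389 cells, against 4.73 in DMSO cells, at least 1.05-fold higher. MINPP1, an inositol phosphate phosphatase that also acts on bisphosphoglycerate, rose by 0.38. HKDC1, a hexokinase relative, was at least 1.35-fold lower, with 5.30 in MI-389 cells and 5.92 in DMSO cells, and TIGAR, a fructose bisphosphatase induced by p53, fell by 0.31.

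Among the 6 members at the pyruvate branch, 1 rose and 1 fell, and the fall was that of PDK1, a kinase that shuts off pyruvate dehydrogenase. PDK1 had 6.26, 6.16 and 6.25 with MI-389, against 7.58, 7.53 and 7.50 with DMSO. The groups were apart by many times their spread, and PDK1 was 2.48-fold lower with MI-389 (difference -1.31, SE 0.06, adjusted p = 6.9e-08). The second PDK1 probe set was below background and not called (-0.12). PDK3 rose by 0.37 (adjusted p = 7.3e-04) with both groups below background, at 4.45 in MI-389 cells and 4.09 in DMSO cells, and was not called with the spike-in centring (0.11). PDK2 and PDK4 were below background in both groups and not called. LDHA, the lactate dehydrogenase subunit raised by HIF1A, had 11.96, 11.92 and 12.10 with MI-389 and 12.00, 11.96 and 11.96 with DMSO. These values overlapped, with an interval from -0.11 to 0.16, and 0 of its 4 probe sets were called. LDHB, the other subunit, was lower on every MI-389 array, at 11.97, 11.94 and 11.99, against 12.14, 12.07 and 12.08, and missed the threshold (-0.13, adjusted p = 0.095). LDHB was called lower with the trend and robust variance (adjusted p = 0.0027), with a further quantile normalisation (-0.15, adjusted p = 0.043), when other genes were read by the mean of their probe sets (adjusted p = 0.044) and with the spike-in centring (-0.38, adjusted p = 5.9e-04).

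Genes that carry pyruvate into the mitochondria and oxidise it counted 3 higher and 3 lower of 10 measured, with a median of -0.02. PDP1, a phosphatase that turns pyruvate dehydrogenase back on, rose. It had 7.96, 8.07 and 8.03 with MI-389, against 6.50, 6.49 and 6.41 with DMSO, 2.94-fold higher (difference 1.56, SE 0.06, 3 of 3 probe sets called). Of these probe sets 1 lay below background in both groups. The kinase gene PDK1 and the phosphatase gene PDP1, which act on the same complex in opposite senses, thus had differences of opposite sign. PDHA1, the subunit that both enzymes act on, rose by 0.33 (adjusted p = 9.6e-04), and MPC1, a subunit of the mitochondrial pyruvate carrier, by 0.33 (adjusted p = 0.0023). PDHX and DLD, structural and dehydrogenase components, fell by 0.32 and 0.25. PC, the carboxylase that feeds pyruvate into oxaloacetate, was at least 1.07-fold lower, with 5.33 in MI-389 cells and 5.59 in DMSO cells. Of 13 measured genes of the tricarboxylic acid cycle 3 rose and 2 fell. The 3 that rose, SDHA (0.59), SDHD (0.38) and SDHC (0.31), encode succinate dehydrogenase subunits, and the 2 that fell, IDH3G (-0.28) and IDH3A (-0.26), subunits of isocitrate dehydrogenase.

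**Figure D3:**
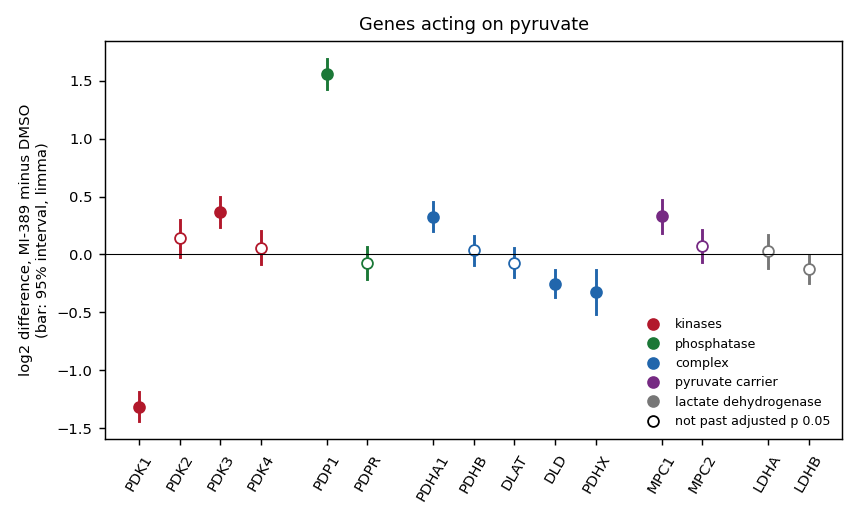
Log2 difference (MI-389 minus DMSO, vertical axis) with 95% intervals from limma for the kinases, the phosphatase PDP1 and its regulator PDPR, the complex, the carrier and lactate dehydrogenase; filled symbols passed an adjusted p of 0.05. PDK1 at -1.31 and PDP1 at 1.56 stand apart in opposite directions from the other genes drawn. The kinase genes PDK2, PDK3 and PDK4 lay below background in both groups, and PDK1 did not.

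In the pentose phosphate pathway, 2 of 3 members rose. TALDO1 and TKT, the transaldolase and transketolase, exchange carbon units between the pathway and glycolysis. TALDO1 had 11.40, 11.32 and 11.44 with MI-389, against 11.00, 10.97 and 11.02 with DMSO, 1.31-fold higher (SE of the log2 difference 0.06, adjusted p = 3.5e-04). TKT had 11.38, 11.36 and 11.23 with MI-389, against 10.96, 10.90 and 11.01 with DMSO, 1.29-fold higher (adjusted p = 0.0011). Neither gene overlapped between the groups. All 3 probe sets of TKT and both of TALDO1 were called higher, with 1 of each gene below background in both groups. With the spike-in centring both stayed positive, TALDO1 at 0.14 and TKT at 0.11, without passing the test. PGD, a dehydrogenase of the oxidative branch, did not pass the test (-0.08, interval -0.23 to 0.08), and the spike-in centring gave -0.33, called lower. Of 9 other measured genes 1 rose and 2 fell: RPE, a pentose epimerase, rose by 0.24, PGLS, the lactonase of the oxidative branch, fell by 0.22, and RBKS, which phosphorylates free ribose, was 2.84-fold lower with 1 of 2 probe sets called.

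Of 7 measured members of the hypoxia response, 1 rose and 2 fell, with a median of -0.10. With the spike-in centring the counts were 1 higher and 5 lower, where 1397 and 11056 of all 18239 genes were. VEGFA, the growth factor of blood vessels, fell. It had 10.19, 10.22 and 10.05 with MI-389, against 11.62, 11.69 and 11.59 with DMSO, 2.79-fold lower (difference -1.48, SE 0.06, adjusted p = 5.9e-08). Lower values were called in 8 of its 10 probe sets, with differences down to -1.79. Of these 8, 2 lay below background in both groups. EGLN1, the main prolyl hydroxylase that marks HIF1A for destruction, rose. It had 9.20, 9.31 and 9.28 with MI-389, against 8.79, 8.81 and 8.60 with DMSO, 1.44-fold higher (adjusted p = 1.9e-04), and 2 of 3 probe sets were called. The dimmer of these 2 lay below background in both groups. HIF1A transcript was above the DMSO range on every MI-389 array, with 9.67, 9.72 and 9.87 against 9.62, 9.62 and 9.58 in DMSO cells, and missed the threshold (0.14, adjusted p = 0.13). All 8 probe sets of HIF1A had positive differences, from 0.03 to 0.27, with 1 called. HIF1A was called higher with the mean of its probe sets (0.19, adjusted p = 0.028) and with the trend and robust variance (adjusted p = 0.040), and its difference was -0.11 with the spike-in centring. HIF1A is controlled mainly through its protein, which was not measured.

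ANKRD37, a target of HIF1A, fell by 0.73 (adjusted p = 0.0020) with both groups below background, at 4.31, 4.22 and 4.37 with MI-389 and 5.11, 5.33 and 4.67 with DMSO. Its other probe set, dimmer still, had a difference of 0.14 without passing the test, and the mean of both fell by 0.30 (adjusted p = 0.0074). ADM, which encodes adrenomedullin, and EGLN3, a hydroxylase that is itself induced by HIF1A, were below background in both groups and not called. P4HA1, a collagen prolyl hydroxylase, did not pass the test (-0.16, interval -0.39 to 0.06). Other genes of oxygen sensing and other hypoxia targets counted 9 higher and 2 lower of 22 measured, with a median of 0.12. ARNT, the partner of HIF1A, had 7.43, 7.54 and 7.42 with MI-389, against 6.38, 6.43 and 6.41 with DMSO, 2.08-fold higher, and 3 of 5 probe sets were called. BNIP3L and BNIP3 are related receptors for the removal of mitochondria, and they differed in sign. BNIP3L rose by 0.96, with all 6 probe sets higher, and BNIP3 fell by 0.74, with 1 of 2 probe sets lower. FAM162A, a mitochondrial protein induced by HIF1A, rose by 0.78, and ERO1A, an oxidase of the endoplasmic reticulum, fell by 0.43. EPAS1, which encodes a relative of HIF1A, was below background in both groups, with 4.92 ± 0.16 in MI-389 cells and 4.93 ± 0.12 in DMSO cells (SD, n = 3 each).

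**Figure D4:**
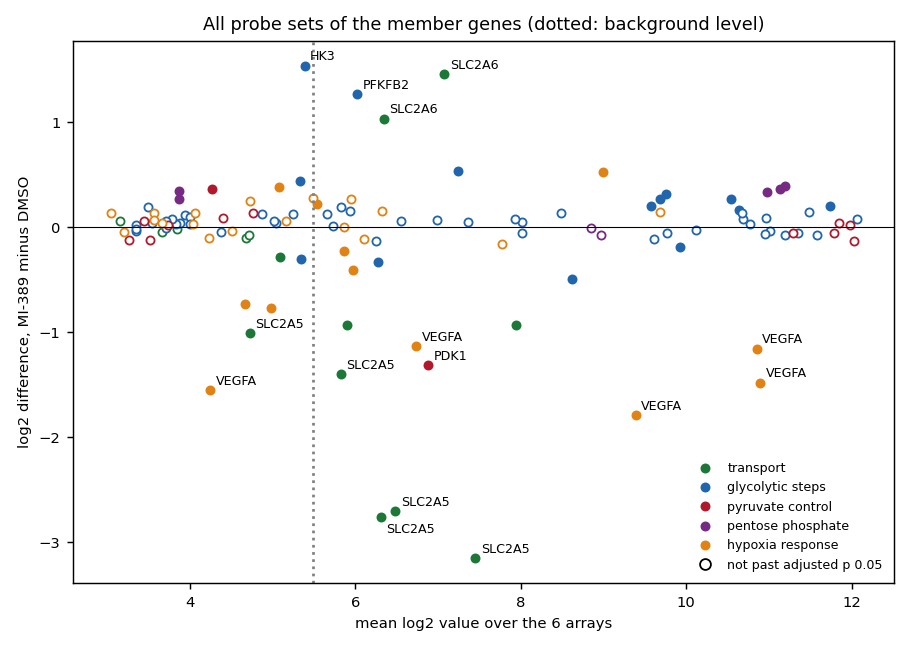
Log2 difference (MI-389 minus DMSO, vertical axis) against mean log2 value (horizontal axis) for all 123 probe sets of the 37 members, coloured by class and filled where the adjusted p over all probe sets was under 0.05. The 3 lowest points are probe sets of SLC2A5, and the glycolytic probe sets to the right of 10 lie between -0.07 and 0.27.

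Over all 123 probe sets of the members, 21 were called higher and 22 lower, against 14.0% in each direction, or 28.0% in all, of the probe sets tested. Of the 123, 49 lay below background in both groups. The 8 further probe sets annotated to a member and another symbol were left out, among them that of PKM with PKM2. Among the 74 above background in a group, 17 were higher and 17 lower, which is 45.9%, against 56.0% of all probe sets above background (26.9% higher and 29.1% lower). The brightest probe set carried the call for HK1, PFKFB2, PFKFB4, PFKL, TPI1, PDK1 and ANKRD37 while their others were not called, whereas VEGFA, SLC2A5, TKT and SLC2A1 were called by most of theirs. The called probe sets of VEGFA, SLC2A5, TKT and SLC2A1 include some below background in both groups. When genes were read by the mean of their probe sets, the calls held and the differences shrank by more than 1.5 times for SLC2A5 (-1.59), SLC2A1 (-0.55), SLC2A6 (0.62), PFKFB2 (0.29), ALDOC (0.27), PDK1 (-0.72), VEGFA (-0.86), EGLN1 (0.32) and ANKRD37 (-0.30).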

How the data were processed

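Total RNA of 3 MI-389 and 3 DMSO samples was labelled by a 3-prime protocol for Affymetrix arrays, per the labels. The deposited values are log2 intensities summarised by probe set, with 1 column for each array. RMA and limma were used by the authors, per the submitters' processing notes, with versions and settings not given in the sources used here. RMA compresses dim probe sets, so folds of dim genes are understated. Array medians were 4.47 to 4.49, and the number of arrays, 3 a group, limits the precision. No detection calls were used, and 5.49, the highest single-array value of the nonspecific control probe sets with that of highest GC content left out, served as background level. A fold said to be "at least" sets the dimmer group's arrays to no less than that level.

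Of 49293 probe sets that are not controls, the platform annotation gave 45253 a single gene, 1327 more than 1 and 2713 no gene name. The gene ID of 45172 was found in the RefSeq table of GRCh38.p14, used for symbols, while 81 stayed under the symbol of the platform. Each of 18239 genes was represented by its probe set with the highest mean. Groups were compared with limma 3.58.1 under R 4.3.3 (two-sided moderated test from lmFit and eBayes without covariates, Benjamini-Hochberg adjustment over all genes, threshold 0.05), and probe sets likewise. The test was checked on simulated data. Alternatives were other scalings, a filter on dim genes, the replicate number as a block, a variance trend, each array left out, other choices of probe set and a threshold of 0.01. The "unspecific" suffixes are _x_at, _s_at and _a_at, the last of which marks transcripts of 1 gene. Same-numbered arrays did not deviate together (correlations of -0.20, 0.02 and -0.14), so the numbers were not taken as pairs. Differently numbered arrays had correlations from -0.04 to 0.20, the highest for MI-389 replicate 1 with DMSO replicate 3. The members, gene lists and tests were chosen with earlier results of these data known. Genes named outside the members are the largest changes of each list past the threshold, up to 3 in each direction, with GAPDH, EPAS1 and ARNT always named. TXNIP and ENO3 were named after their values were seen. Some list members were not analysed here.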

Additional observations from a re-analysis of the deposited data

How the results depend on the processing

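Of the 19 members that passed the test, 7 kept their direction and their call under all 15 alternatives, namely ALDOC, ANKRD37, EGLN1, HK3, PDK1, PFKP and VEGFA. Of the 18 that did not pass, only PGAM1, 1 gene, was called under none of them. Centring on the hybridisation spike-ins lowers every gene by 0.25 and changed most: 12453 genes were called, 1397 higher and 11056 lower. Of the members 5 were higher and 22 lower, and the median of all genes was -0.23. The medians were -0.23 for the members, -1.18 for transport, -0.21 for glycolytic steps, -0.21 for pyruvate control, 0.11 for pentose phosphate and -0.35 for the hypoxia response. Under it PFKM (-0.23), PFKFB3 (-0.20), ENO2 (-0.24), LDHA (-0.23) and PDK4 (-0.19) turned negative and were called, and TPI1 (-0.0508) turned negative and was not. The small medians also moved with other settings. A common median gave 0.0212 for glycolytic steps and -0.12 for the hypoxia response, and a further quantile normalisation 0.0288 and -0.12. Leaving out dim genes gave 0.0534 for glycolytic steps and -0.0514 for pyruvate control. The mean of all probe sets gave -0.55 for transport, 0.0298 for glycolytic steps, -0.0209 for pyruvate control and -0.0065 for the hypoxia response. With unspecific suffixes last the medians were -0.0408 for transport, where dimmer probe sets then stand for SLC2A1, SLC2A5 and SLC2A6, and -0.0375 for the hypoxia response, where another probe set stands for EGLN3 (0.13). With 1 array left out, members called higher numbered 10 to 12 and members called lower 7 to 8, all genes called 5216 to 6160, and the medians ran from 0.0161 to 0.0436 for all members, -0.997 to -0.865 for transport, 0.0214 to 0.0634 for glycolytic steps, 0.0299 to 0.0628 for pyruvate control, 0.34 to 0.39 for pentose phosphate and -0.143 to -0.0617 for the hypoxia response. The replicate number as a block changed the call of 0 members and gave 5725 genes called against 6214. Where no value above shows it, the cause was not tested. The limits are 1 cell line, 1 dose, 1 time and RNA alone.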
